A study of Mus musculus with 3 samples.

Results

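The genes described are 10 of the 55536 annotated genes measured in cytoplasmic RNA of mouse macrophages: the inflammasome sensors Nlrp3, Nlrp1b, Nlrc4 and Aim2, the adaptor gene Pycard, the caspase genes Casp1, Casp4 and Casp8, the pore-forming gasdermin gene Gsdmd, and Txnip. They were chosen by name, with no measured value in the rule, and all 10 were found in the gene tables. Bone-marrow-derived macrophages (BMDM), primary cells grown from the marrow of C57BL/6J mice, were exposed to Lipid A, the part of bacterial lipopolysaccharide that Toll-like receptor 4 senses, at 100 ng/ml for 30 min, and the cytosolic fraction was taken for ribosome-depleted total RNA-seq. The series holds this 1 group with 3 libraries, called replicates 1, 2 and 3, which share 1 donor record; sex and age were not collected. The spread between them may therefore be partly technical, and with no untreated cells or nuclear fraction analysed here every value is a level after Lipid A, not a response to it.

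Inflammasomes are cytosolic protein platforms that turn the sensing of microbes or damage into inflammatory cell death. A sensor of the NLR or AIM2-like family assembles, usually through the adaptor ASC (encoded by Pycard), and recruits pro-caspase-1, which then matures interleukin-1β and interleukin-18 and cuts gasdermin D, whose released end forms pores in the plasma membrane. In macrophages the NLRP3 inflammasome is known to need a priming signal, such as a Toll-like receptor agonist. This raises Nlrp3 and Il1b messenger RNA before a second signal triggers assembly. Mouse caspase-11, encoded by Casp4, binds lipopolysaccharide in the cytosol and cuts gasdermin D directly.

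The libraries of replicates 1, 2 and 3 held 23403552, 50435201 and 35785896 expected counts of genes, so that 0 counts allow levels of up to 0.128, 0.0595 and 0.0838 CPM (counts scaled to library size) in that order. All 8 macrophage markers were at 1 TPM (abundance scaled by transcript length and library) or more, and their summed levels were 16500, 14000 and 15000 CPM in replicates 1, 2 and 3. The 6 stromal markers, collagen genes among them, summed to 264 CPM in replicate 1, but to 0.221 and 1.02 CPM in replicates 2 and 3. Summed neutrophil markers were between 8.3 and 20.1 CPM, dendritic ones between 3.22 and 4.59 CPM and lymphoid ones at most 0.203 CPM, with Gzma at 0 counts. Of the 9 neutrophil markers, 3 were at 1 TPM or more. S100a9 and S100a8 were among them at means of 17.3 and 10.1 TPM, while Ly6g averaged 0.04 TPM. Malat1, a nuclear long non-coding RNA, had 3880, 1260 and 6510 CPM in replicates 1, 2 and 3. Nuclear protein-coding genes took 22.3%, 34.4% and 24.3% of the TPM of replicates 1, 2 and 3. TPM is therefore used below to compare genes, and CPM on library sizes scaled by edgeR's TMM (trimmed mean of M-values) method to compare libraries.

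RNA of all 10 genes was detected in all 3 libraries. All 10 genes averaged 1 TPM or more, against 42.7% of the 22015 nuclear protein-coding genes, and 8 averaged 10 TPM or more, against 18.0% of those genes. None averaged 100 TPM. The median of their means was 19.0 TPM, beside 0.177 TPM for nuclear protein-coding genes, and the highest mean was 27.8 times the lowest. Txnip stood at the top of the order, followed by Casp1, Casp8, Nlrp3, Aim2, Pycard, Gsdmd and Casp4, while the sensors Nlrp1b and Nlrc4 lay far below. Neighbours in that order kept their sign in all 3 libraries for 5 of 9 pairs: Txnip over Casp1, Casp1 over Casp8, Gsdmd over Casp4, Casp4 over Nlrp1b, and Nlrp1b over Nlrc4. In the second transcript table Gsdmd was above Casp4 in 2 of 3 libraries, and Nlrp1b was above Nlrc4 in 0 of 3. With basic-set transcripts only, Nlrp1b was again above Nlrc4 in 0 of 3. For those 5 pairs the exact two-sided sign-flip permutation test gave p = 0.25, the smallest that 3 libraries allow. Within the run from Casp8 to Gsdmd, neighbours changed order between libraries. Their mean differences were at most 0.25 on the log2(TPM + 1) scale, with SDs from 0.34 to 0.71. Genes further apart in the run mostly kept their order in all 3 libraries. Casp8 was above Aim2, Pycard and Gsdmd, Nlrp3 above Pycard, and Aim2 above Gsdmd, but Nlrp3 was not above Gsdmd in replicate 2. Counting only transcripts in the GENCODE basic set, 5 genes averaged 10 TPM or more, since Aim2, Pycard and Casp4 then averaged 8.29, 4.99 and 6.47 TPM.

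**Figure D1:**
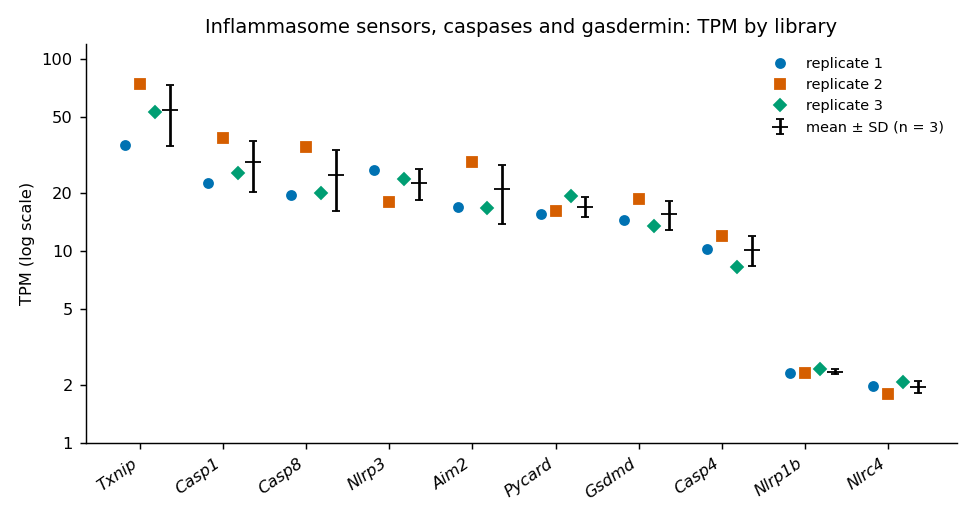
TPM of each gene (log axis) in replicates 1, 2 and 3, with the mean and SD over the 3 libraries, ordered by mean. Txnip leads at a mean of 54.4 TPM, 7 genes lie between 10.2 and 29.0 TPM, and Nlrp1b and Nlrc4 sit at 2.36 and 1.96 TPM.

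Of the sensors Nlrp3, Nlrp1b, Nlrc4 and Aim2, Nlrp3 (chr11:59541568-59566956, plus strand, mm10 as for all genes below), which responds to potassium efflux and many forms of cell damage, had the highest mean, narrowly above Aim2. In deposited TPM, Aim2 had the higher mean without replicate 1 (20.94 TPM for Nlrp3 and 23.0 TPM for Aim2). The same held without replicate 3 (22.22 TPM for Nlrp3 and 23.12 TPM for Aim2). Deposited TPM is not adjusted for the nuclear protein-coding share, which was largest in replicate 2. With TPM rescaled over nuclear protein-coding genes, the means over all 3 libraries were 89.5 TPM for Nlrp3 and 76.8 TPM for Aim2. The Nlrp3 level was 26.3, 18.1 and 23.8 TPM in replicates 1, 2 and 3, a mean of 22.7 ± 4.2 TPM (SD, n = 3), within the top 8.55% of nuclear protein-coding genes. Its counts were 4574, 4080 and 5673, or 203, 75.0 and 165 CPM. Replicate 2 was lowest although it was sequenced most deeply, and the highest library was 2.71-fold above the lowest, the widest ratio among the 10 genes. The biological coefficient of variation estimated by edgeR was 31.8% for Nlrp3, percentile 74.2 among all genes tested. Il1b, the substrate gene usually primed with Nlrp3, had 417, 211 and 265 CPM, and Tnf had 1700, 714 and 812 CPM. In CPM both were also highest in replicate 1 and lowest in replicate 2. Of all genes tested, 29.8% were highest in replicate 1 and 37.6% were lowest in replicate 2. By TPM, Il1b was lowest in replicate 3, at 185, 140 and 133 TPM in replicates 1, 2 and 3. Replicate 1 also held the stromal signal and replicate 2 the lowest Malat1. Malat1 was highest in replicate 3, however, and the stromal sum was low in both replicates 2 and 3. Their part in the Nlrp3 values was not tested.

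Nlrp3 RNA was assigned to 2 complete transcripts with separate starts on chromosome 11 (mm10, plus strand). Nlrp3-201, whose first base is 59541568, held 71.7%, 73.3% and 84.5% of the gene's TPM in replicates 1, 2 and 3. Nlrp3-202, first base 59542686, held 28.4%, 5.18% and 15.5%. In CPM, Nlrp3-201 had 144, 67.7 and 139 and Nlrp3-202 had 58.5, 4.90 and 26.0, so both were lowest in replicate 2 and the ratio between libraries was larger for Nlrp3-202. In replicate 2 a further 21.5% of TPM went to Nlrp3-203, an incomplete model of 676 bases, which received 128 reads there and 0 in the other libraries. The second transcript table divided the same gene otherwise, with 43.2% for Nlrp3-201, 29.9% for Nlrp3-202 and 26.8% for Nlrp3-203 on average. The downstream start, with Nlrp3-202 and Nlrp3-203, thus held 23.5% ± 7.0 in the first table and 56.8% ± 2.76 in the second (SD, n = 3). The RefSeq windows around the 2 starts (GRCm38.p6, 250 bases before to 50 after the first base, both plus strand) are shown because the Nlrp3 result rests on both; capitals mark the 9 letters GGGNNTTCC, an NF-kB-like word, or their reverse complement.
Nlrp3 upstream start, chr11:59541319-59541618: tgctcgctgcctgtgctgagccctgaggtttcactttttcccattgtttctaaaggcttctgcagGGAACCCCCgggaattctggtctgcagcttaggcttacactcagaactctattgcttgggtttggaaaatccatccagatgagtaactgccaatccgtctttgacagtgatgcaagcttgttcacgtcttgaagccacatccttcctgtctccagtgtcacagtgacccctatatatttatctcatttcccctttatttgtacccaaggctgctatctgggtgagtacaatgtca
Nlrp3 downstream start, chr11:59542436-59542735: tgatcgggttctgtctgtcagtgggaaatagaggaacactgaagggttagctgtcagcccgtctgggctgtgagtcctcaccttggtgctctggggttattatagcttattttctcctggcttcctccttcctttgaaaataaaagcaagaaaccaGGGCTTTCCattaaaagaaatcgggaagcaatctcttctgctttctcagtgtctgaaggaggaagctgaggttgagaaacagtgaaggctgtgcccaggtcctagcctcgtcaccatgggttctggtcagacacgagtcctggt
The upstream window held the word on the reverse strand from position -185 and the downstream window held it on the forward strand from position -94, counted from the first transcribed base as 1. It occurs in 5.82% of the 32851 promoter windows of the RefSeq table. A match of letters is a description and not evidence of binding.

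Nlrc4 and Nlrp1b were the scarce sensors. Nlrc4 (chr17:74425438-74459142, minus strand), which assembles when a NAIP protein has bound flagellin or a secretion-system protein, had 1.99, 1.80 and 2.08 TPM in replicates 1, 2 and 3 and averaged 1.96 ± 0.14 TPM (SD, n = 3). Its counts of 398, 586 and 560 gave 17.7, 10.8 and 16.3 CPM, lowest in replicate 2. Of its TPM, 86.3% ± 4.41 (SD, n = 3) belonged to Nlrc4-201. The sensors that feed Nlrc4 differed widely: Naip2, which detects the rod protein of the secretion system, had 7.63, 10.03 and 8.50 TPM, while Naip5 and Naip6, the flagellin receptors, averaged 3.92 ± 0.53 and 2.56 ± 0.33 TPM. Naip1, the needle-protein receptor, averaged 0.037 TPM on 8, 11 and 14 counts. Naip genes are near-identical copies, so their separate values are uncertain, although the deposited posterior SD of their counts was at most 1.85 reads.

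Nlrp1b (chr11:71153102-71230733, minus strand), cut and activated by anthrax lethal factor in susceptible mouse strains, had 2.32, 2.33 and 2.43 TPM in replicates 1, 2 and 3. It averaged 2.36 ± 0.06 TPM (SD, n = 3). In CPM it had 19.0, 12.7 and 18.1, again lowest in replicate 2. A steady share of 41.4% ± 1.2 (SD, n = 3) of its TPM belonged to Nlrp1b-205, a transcript annotated as a target of nonsense-mediated decay, and 58.6% ± 1.2 to the basic set. The second transcript table raised the decay target to 55.5% on average. Its neighbouring copies were scarcer: Nlrp1a had 0.47, 0.94 and 0.37 TPM and Nlrp1c-ps, annotated under a pseudogene symbol, had 1.5, 1.25 and 1.5 TPM. As close copies, their separate values are uncertain, although the deposited posterior SD of their counts was 0 in each library. Nlrp1b and Nlrc4 stood in the reverse order in all 3 libraries of the second table, and also when transcripts outside the basic set were left out.

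Aim2 (chr1:173350879-173466040, plus strand), the receptor for double-stranded DNA in the cytosol, averaged close to Nlrp3 in deposited TPM. It was above Nlrp3 in replicate 2 and below it in replicates 1 and 3. It had 17.0, 29.2 and 16.8 TPM in replicates 1, 2 and 3, a mean of 21.01 ± 7.09 TPM (SD, n = 3), and 34.2, 39.4 and 29.5 CPM. Replicate 2 was highest on both scales. Its TPM was split between complete and partial models: the basic set held 39.0% ± 2.5, incomplete coding models 34.9% ± 4.3 and processed transcripts 26.1% ± 2.3 (SD, n = 3). By counts, the basic-set transcript Aim2-204 alone held 68.8%, since TPM divides reads by length and the incomplete and processed models are short. Aim2-205, an incomplete model that starts near position 173420598 of chromosome 1, led in the second table at 34.8% against 29.0% for Aim2-204.

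Pycard (chr7:127989708-127993867, minus strand), whose product ASC links most sensors to caspase-1, had 15.7, 16.2 and 19.4 TPM in replicates 1, 2 and 3 and averaged 17.1 ± 2.01 TPM (SD, n = 3). It had 38.1, 32.8 and 39.0 CPM, and no library was more than 1.19-fold above another. A model that is incomplete and only 493 bases long, Pycard-202, took 70.5% ± 6.5 of the TPM but 15.7% of the counts, while Pycard-201, 3800 bases long, took 84.3% of the counts. Most of its TPM thus rests on the 142, 195 and 263 reads placed on the short model. An unconfirmed gene on the opposite strand, Gm45205, overlaps an exon of Pycard and had 3, 6 and 4 counts; whether counting used the strand is not given in the sources used here.

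Casp1 (chr9:5298517-5307265, plus strand), the inflammasome protease, led the caspases. It had 22.7, 38.8 and 25.5 TPM in replicates 1, 2 and 3, a mean of 29.0 ± 8.63 TPM (SD, n = 3). On the CPM scale it was the most even of the 10 genes, with 59.6, 67.4 and 60.9 CPM and a ratio of 1.13 between the highest and lowest library. Its only annotated transcript held every read.

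Casp8 (chr1:58795374-58847503, plus strand), which starts death-receptor apoptosis, restrains necroptosis and can also cut gasdermin D, had 19.6, 34.8 and 20.2 TPM, a mean of 24.8 ± 8.63 TPM (SD, n = 3). It had 78.1, 89.5 and 71.7 CPM, highest in replicate 2. Transcripts from its downstream start on chromosome 1, near 58802502, held 62.8% ± 5.1 of the TPM, and those from the upstream start, near 58795374, held 37.2% ± 5.1 (SD, n = 3). The second table gave 63.9% and 36.1%, so both tables put the downstream start first, unlike for Nlrp3.

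Casp4 (chr9:5308828-5336783, plus strand) was the lowest of the 3 caspases, at 10.3, 12.0 and 8.28 TPM in replicates 1, 2 and 3 and a mean of 10.2 ± 1.86 TPM (SD, n = 3). It had 23.6, 16.7 and 16.8 CPM, highest in replicate 1. Its coding transcript Casp4-201 had 14.4, 14.8 and 10.8 CPM, so replicate 1 was not above replicate 2 there. Its 3 retained-intron transcripts together had 5.95, 0.68 and 3.92 CPM, or 35.2%, 8.03% and 34.3% of the gene's TPM. The second table gave 51.0%, 14.1% and 46.9%, with replicate 2 again far below the others. Retained-intron transcripts of all nuclear protein-coding genes held 3.16%, 3.32% and 3.52% of TPM in replicates 1, 2 and 3, and 1.75%, 1.44% and 1.87% of counts. Replicate 2 was thus the lowest there by counts and not by TPM. Malat1 was also lowest in replicate 2; its part in the Casp4 values was not tested.

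**Figure D2:**
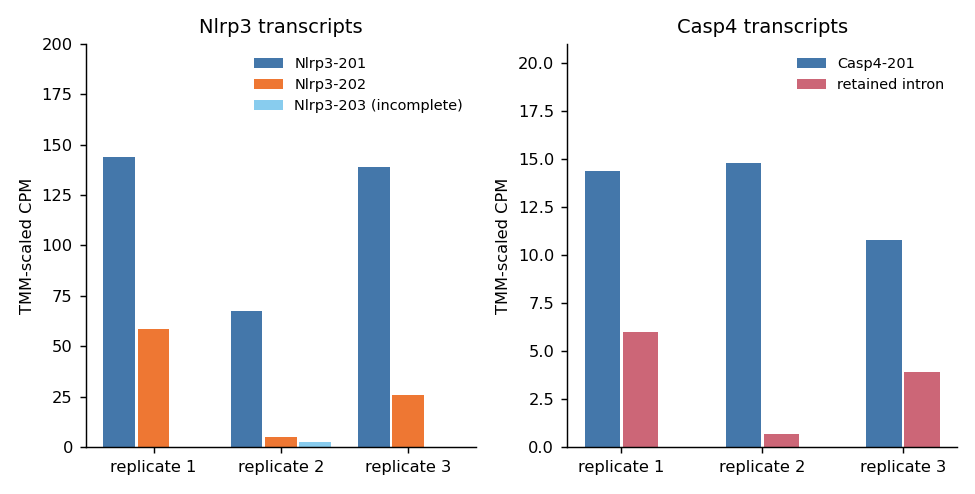
TMM-scaled CPM of the Nlrp3 transcripts (left) and of Casp4-201 and the summed retained-intron transcripts of Casp4 (right) in replicates 1, 2 and 3. Nlrp3-202 runs at 58.5, 4.90 and 26.0 CPM and the Casp4 retained-intron sum at 5.95, 0.68 and 3.92 CPM, both lowest in replicate 2, while Casp4-201 is not.

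The 3 caspases share the catalytic cysteine, and the coding stretch around it is shown, with gasdermin D's cleavage site, because they are the active sites of the enzymes and the cut in their substrate. Each line gives 33 bases of the GENCODE transcript (GRCm38), and capitals mark the codon of the active-site cysteine or, in Gsdmd, of the aspartate after which inflammatory caspases cut.
Casp1-201, cysteine codon 284: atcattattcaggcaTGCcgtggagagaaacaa
Casp4-201, cysteine codon 254: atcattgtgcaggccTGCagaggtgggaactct
Casp8-202, cysteine codon 362: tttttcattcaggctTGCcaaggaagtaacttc
Gsdmd-201, aspartate codon 276: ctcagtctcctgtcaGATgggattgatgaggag
Casp1 and Casp4 have 22 of these 33 bases in common, and each has 19 in common with Casp8. The deposited posterior SD of the counts was 0 for all 3 caspases in each library, that is, the authors' estimator reported no uncertainty from shared reads.

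Gsdmd (chr15:75862327-75867408, plus strand), whose product forms the pores of pyroptosis, had 14.5, 18.6 and 13.5 TPM in replicates 1, 2 and 3 and averaged 15.5 ± 2.71 TPM (SD, n = 3). It had 39.7, 34.9 and 35.9 CPM, and the libraries lay within 1.14-fold of each other. Gsdmd-201 accounted for 83.7% ± 3.2 of TPM and 95.5% of reads, and retained-intron models held 11.0% ± 4.2 of the TPM (SD, n = 3). Gsdmd was the highest of the gasdermin genes in all 3 libraries. Of the 9 other gasdermin genes, 6 had 0 counts in every library, Gsdmc4 and Pjvk averaged 0.02 and 0.09 TPM, and Gsdme, another pore former, averaged 1.85 ± 0.36 TPM (SD, n = 3). The second transcript table gave Gsdma2 and Gsdma, which are among those 6, means of 0.083 and 0.012 TPM.

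Txnip (chr3:96557957-96561883, plus strand), which binds and inhibits thioredoxin and has been reported as an NLRP3 partner under oxidative stress, was the most abundant of the 10. It had 35.9, 73.9 and 53.4 TPM in replicates 1, 2 and 3, a mean of 54.4 ± 19.0 TPM (SD, n = 3), within the top 3.38% of nuclear protein-coding genes. Its counts of 4310, 14242 and 8841 gave 191, 262 and 257 CPM. Replicate 1 lay apart on the low side, and the other libraries were close to each other. The full-length transcripts Txnip-202 and Txnip-201 held 66.8% ± 2.9 and 32.7% ± 2.9 of the TPM (SD, n = 3), starting within 3 bases of each other on chromosome 3. The antisense gene Gm15441 overlaps Txnip and had 2, 3 and 5 counts.

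Promoter windows of the RefSeq table matched 9 of the 10 genes, 12 windows in all, with none for Gsdmd. Words were searched on both strands and each is given with the share of all 32851 windows that hold it. GGGNNTTCC (5.82%) occurred in the windows of Nlrp3, Casp4 and Txnip. GAGGAAGT (3.2%), an ETS-like word, occurred in those of Nlrp1b, Aim2 and Pycard. In Aim2 it shares 1 base with a CCAAT match, a word present in 37.4% of windows that also occurs in those of Nlrp3, Casp8 and Txnip. None of the 12 windows held TGANTCA (7.81%), TGACGTCA (1.79%), TATAAA (13.6%) or the pair GAAA, 2 bases, GAAA (3.44%), which says only that these letters are not there. The pair of CACGNG words 5 bases apart, the form of a carbohydrate response element, is held by 16 of all windows (0.0487%), the Txnip window among them. The letters were set after a known kind of element, so this share is no test of the Txnip window. The Casp4 and Txnip windows are shown for these matches, in capitals, both on the plus strand of GRCm38.p6.
Casp4, chr9:5308599-5308898: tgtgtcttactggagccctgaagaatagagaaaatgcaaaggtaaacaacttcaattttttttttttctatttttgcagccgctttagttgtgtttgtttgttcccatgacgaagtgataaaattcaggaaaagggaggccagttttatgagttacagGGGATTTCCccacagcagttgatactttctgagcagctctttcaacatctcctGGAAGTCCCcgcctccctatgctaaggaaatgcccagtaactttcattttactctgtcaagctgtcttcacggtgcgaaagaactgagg
Txnip, chr3:96557707-96558006: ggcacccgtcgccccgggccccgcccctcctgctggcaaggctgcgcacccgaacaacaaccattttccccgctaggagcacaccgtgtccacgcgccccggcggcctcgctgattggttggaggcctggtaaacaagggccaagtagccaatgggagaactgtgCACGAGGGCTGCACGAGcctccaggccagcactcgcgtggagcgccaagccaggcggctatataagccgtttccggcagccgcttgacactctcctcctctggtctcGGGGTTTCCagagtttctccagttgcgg
In Casp4 the capitals start at positions -92 and -39, and in Txnip at -85 for the CACGNG pair and at 23 for GGGNNTTCC.

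All 10 genes varied between libraries by more than counting noise. Each passed a chi-square test for dispersion beyond Poisson sampling, adjusted by the Benjamini-Hochberg method over all genes tested. So did 66.8% of the 13237 genes whose mean count reached 10, so passing is common. The statistic was largest for Nlrp3 (chi-square 2540) and Txnip (345, adjusted p = 2.95e-74) and smallest for Gsdmd (10.3, adjusted p = 0.0101); the adjusted p-values of the other 7 genes lay between 1.59e-18 for Casp8 and 4.43e-05 for Casp1. Without replicate 2 the test passed for 5 genes, Txnip, Nlrp3, Casp4, Aim2 and Casp8, and 33.1% of genes overall passed it. Without replicate 1 it passed for 7 and not for Txnip (adjusted p = 0.3), Gsdmd (0.491) or Casp4 (0.868), and 55.3% of genes overall passed it. The highest library was replicate 1 for 5 genes (Nlrp3, Nlrp1b, Nlrc4, Casp4 and Gsdmd), replicate 2 for 4 (Txnip, Casp1, Casp8 and Aim2) and replicate 3 for Pycard. Over all genes tested the shares were 29.8%, 39.0% and 31.3%. The lowest library was replicate 2 for 6 of the 10 and replicates 1 and 3 for 2 each, beside 37.6% of all genes tested for replicate 2, 31.0% for replicate 1 and 31.4% for replicate 3. Replicate 2 was lowest for 5 with DESeq2 size factors and for 2, Nlrp3 and Nlrc4, on deposited TPM. For 7 genes the highest library lay within 1.5-fold of the lowest, beside 73.2% of all genes tested. The median ratio was 1.35 for the 10 genes and 1.27 for all genes tested, while the median biological coefficient of variation, which allows for counting error, was 14.8% for the 10 genes and 17.3% for all genes tested.

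**Figure D3:**
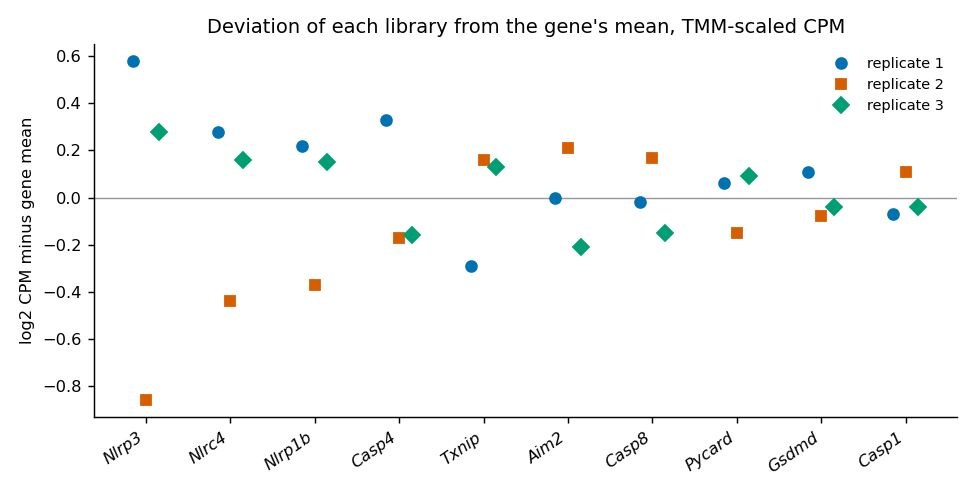
Deviation of each library's log2 CPM from the mean of the gene, for replicates 1, 2 and 3, with genes ordered from the widest to the narrowest ratio between libraries. Nlrp3 deviates by 0.58, -0.86 and 0.28 in replicates 1, 2 and 3; Nlrc4, Nlrp1b, Casp4 and Gsdmd have the same order of libraries, although replicate 3 is lowest for Casp4 with DESeq2 size factors, and Casp1 stays between -0.07 and 0.11.

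**Figure D4:**
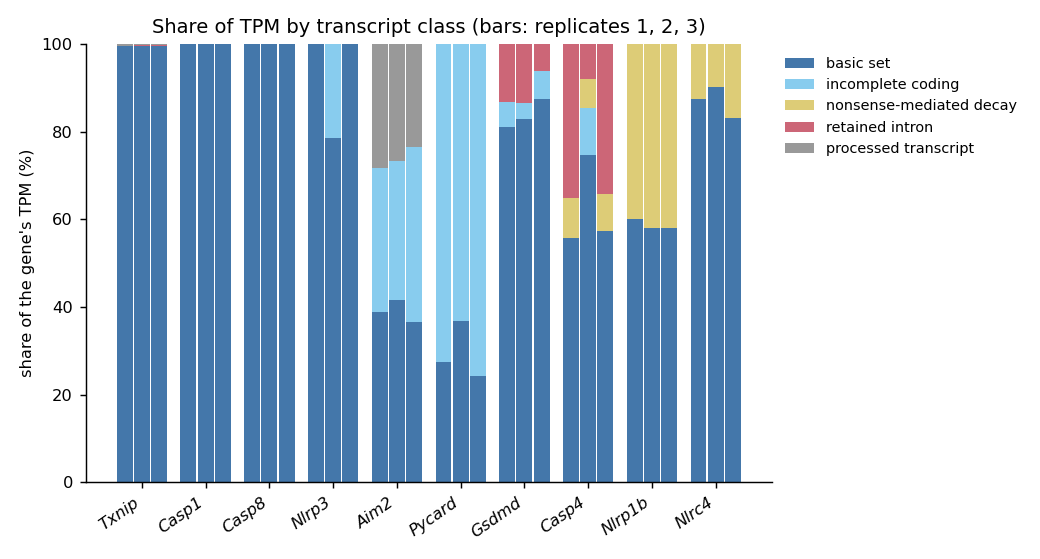
Share of each gene's TPM by class of transcript, with 3 bars per gene for replicates 1, 2 and 3. Casp1, Casp8 and Txnip were almost wholly in the basic set, Pycard and Aim2 mostly outside it at 29.5% and 39.0% inside, Nlrp1b carried 41.4% as decay targets, and the retained-intron share of Casp4 dips in replicate 2.

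The remaining machinery was described from 7 lists of related genes. As a reference for the counts of each list, 66.8% of all genes tested passed the between-library test. Of the nuclear protein-coding genes, 42.7% were at 1 TPM or more and 18.0% at 10 TPM or more. Of 18 other sensors, 9 were at 1 TPM or more and 4 had 0 counts, Nlrp9b among them, and 11 of 13 tested passed the between-library test. In the second transcript table Nlrp9b averaged 0.016 TPM. The interferon-inducible DNA sensor Ifi204 averaged 88.3 ± 23.5 TPM and Zbp1, a sensor of left-handed nucleic acid, 29.7 ± 12.0 TPM (SD, n = 3), both above Aim2 on average. Ifi204 belongs to a family of close copies, so its separate level is uncertain. The posterior SD of its count was small, however, at most 28.29 reads, on 17739 counts in replicate 2. Of 15 regulators of NLRP3 and caspase-1, 13 were at 1 TPM or more and 11 of 14 tested passed the between-library test. The NLRP3 kinase Nek7 had 163, 165 and 155 CPM, close to even, and averaged 20.5 ± 4.33 TPM, and the co-chaperone gene Sugt1 and the transcription factor gene Irf2, needed for Gsdmd expression, averaged 20.2 ± 7.01 and 22.1 ± 8.29 TPM (SD, n = 3). Trim31, a ligase that marks NLRP3 for degradation, had 0 counts. Gbp5, named after its values were seen, had 82.5, 31.7 and 26.1 CPM, the widest ratio of this list among genes at 1 TPM or more, at 3.16.

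The effectors were abundant. All 5 cytokine and membrane-rupture genes were at 10 TPM or more, beside 18.0% of nuclear protein-coding genes. All 5 passed the between-library test, beside 66.8% of all genes tested. Il1b, encoding the main caspase-1 substrate, had 185, 140 and 133 TPM in replicates 1, 2 and 3 and Ninj1, which ruptures the membrane after pore formation, had 101, 129 and 107 TPM. Hmgb1, a nuclear alarmin released by ruptured cells, averaged 46.5 ± 19.8 TPM, and Il18, the other caspase-1 cytokine, averaged 11.5 ± 4.96 TPM (SD, n = 3). The posterior SD of the Hmgb1 count was at most 52.69 reads, on 8755 counts in replicate 2. The Il1b level was above Casp1 in all 3 libraries and the Il18 level below it in all 3.

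The other caspases were low beside Casp1 and Casp8. Of 7, 5 were at 1 TPM or more, beside 42.7% of nuclear protein-coding genes, and none was at 10 TPM. The between-library test passed for 6 of 6 tested, beside 66.8% of all genes tested. Casp9, the initiator caspase of the mitochondrial route to apoptosis, averaged 9.59 ± 2.02 TPM (SD, n = 3). Casp12, a neighbour of Casp1 and Casp4 on chromosome 9, averaged 0.193 TPM on 30, 35 and 7 counts, and Casp14 had 0 counts. All 11 genes of the caspase-8 complex and necroptosis were at 1 TPM or more. The between-library test passed for 8 of 11, beside the same 66.8%. Cflar, whose product restrains caspase-8, had 28.5, 34.9 and 27.3 TPM, above Casp8 in all 3 libraries, in replicate 2 by little. The receptor gene Tnfrsf1a averaged 37.3 ± 4.44 TPM, Ripk1 20.4 ± 6.50 TPM and the death receptor gene Fas 2.81 ± 0.82 TPM (SD, n = 3).

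Among 9 partners and regulators of Txnip, 8 were at 1 TPM or more, beside 42.7% of nuclear protein-coding genes. The between-library test passed for 7 of 8 tested, beside 66.8% of all genes tested. The thioredoxin genes Txn1 and Txn2 averaged 52.9 ± 9.24 and 35.7 ± 10.7 TPM, and the related arrestin gene Arrdc3 averaged 30.5 ± 15.4 TPM (SD, n = 3). Arrdc3 had 161, 225 and 165 CPM, so it was lowest in replicate 1 as Txnip was, yet replicate 3 lay with replicate 1 and not with replicate 2. Mlxipl, which encodes the carbohydrate response factor ChREBP, had 0 counts in each library. The second transcript table gave it 0.037, 0.040 and 0.033 TPM in replicates 1, 2 and 3. Mlxip, its paralogue, named after its values were seen, averaged 7.14 ± 0.79 TPM (SD, n = 3).

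**Figure D5:**
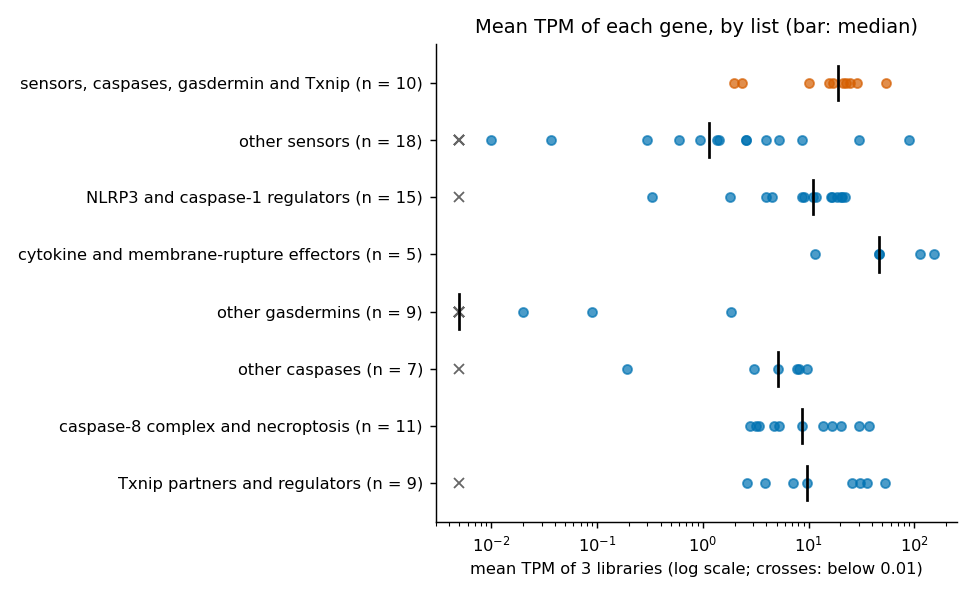
Mean TPM over 3 libraries (log axis) of the 10 genes described and of the 7 related lists, one point per gene, a cross for genes below 0.01 TPM and a bar at the median. The 10 genes have a median of 19.0 TPM, other sensors 1.15 TPM, other caspases 5.15 TPM and the cytokine and membrane-rupture genes 46.5 TPM, while most other gasdermins lie at 0.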

How the data were processed

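Ribosome-depleted RNA of the cytosolic fraction was measured in 3 libraries of 1 group (1 µg of RNA, fragments of 250 to 400 nt, per the labels). Files use mm10 and GENCODE M21, per the deposited readme files; the aligner, the quantifiers' versions and the use of strand were not given in the sources used here. The deposited expected counts are the authors' estimates of reads for each gene or transcript, without normalization. The deposited TPM values are scaled by the authors over all rows of a library. The deposited percent column gives the part of a gene's TPM that a transcript holds, and the deposited posterior SD of a count shows how far reads were shared. Per the file headers, the layout is RSEM's in the gene table and the first transcript table and kallisto's in the second; second-table gene values are sums over transcripts. Of 81881 rows, 55536 matched the annotation; the rest, up to 0.462% of counts, were left out.

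Expected counts were rounded. Each gene whose mean count reached 10 was tested for dispersion between libraries, by chi-square against Poisson sampling, with TMM-scaled library sizes (edgeR 4.0.16, R 4.3.3) and Benjamini-Hochberg adjustment at 0.05. DESeq2 1.42.0 gave alternative size factors. The test was tried on simulated data. With 1 group no contrast was possible, and p-values measure the spread between these libraries only. Deviations used a prior count of 0.5, level differences a pseudocount of 1. The limits given for 0 counts cover counting error only, while each value after ± is the SD between libraries. For deposited TPM that SD is not adjusted for the nuclear protein-coding share, which was 22.3%, 34.4% and 24.3% in replicates 1, 2 and 3. Genes, lists and tests were chosen with earlier results of these data known. Named were the 10 genes, the 3 highest and the lowest gene of each list, close copies, and transcripts with a share of 10% or more, except that some listed genes are not reported here; no search for genes of like pattern was made, since 1 condition gives none. Other steps used Python 3.11.15, pandas 2.3.3 and scipy 1.17.1.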

Additional observations from a re-analysis of the deposited data

How the results depend on the processing

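The count of genes at 1 TPM or more stayed at 10 under every alternative run. At 10 TPM or more it was 8, and 5 with the second transcript table or with basic-set transcripts only, the last chosen after seeing the data; the second table rescaled over nuclear protein-coding genes gave 9. At 100 TPM or more it was 0, and 2 with TPM rescaled over nuclear protein-coding genes. Neighbouring pairs of one sign in every library numbered 5, and 8 with basic-set transcripts only, of which 2 had the opposite sign (Gsdmd above Pycard and Nlrc4 above Nlrp1b); leaving out a library gave 5 to 8. Genes highest in replicate 1 numbered 5, but 1 on deposited TPM, and genes lowest in replicate 2 numbered 6, but 2 on deposited TPM, a setting added for the lowest library after seeing the data. The nuclear protein-coding share of TPM was 34.4% in replicate 2, against 22.3% and 24.3% in replicates 1 and 3. The between-library test passed for 10 genes, and for 5 to 10 when a library was left out, beside 8842 genes overall and 4334 to 7376 in that case. With TMM factors from all genes above 0 counts, chosen after seeing the data, Gsdmd was lost (adjusted p = 0.0613, chi-square index of dispersion). The median share of the leading transcript moved to 60.4% in the second table, and lay between 67.7% and 70.2% when a library was left out. Other gasdermins at 1 TPM or more numbered 1, and 0 in the second table. The causes of the second-table differences were not tested. No paired analysis was possible because the series has 1 group. With 3 libraries the exact test cannot go below p = 0.25, so no order of levels can pass 0.05.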
